A study of Mus musculus with 4 samples.

Results

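Tracheal cells of library 1 were compared with those of library 4, separately in ciliated, secretory and basal cells. Members were chosen by measured values: a cell entered by the number at the end of its barcode and by the share of its UMIs (unique molecular identifiers, each a captured RNA molecule) that fell on gate genes. Cells had at least 300 genes and at most 20% mitochondrial UMIs. Ciliated cells had at least 0.3% of UMIs on Ccdc153, Tmem212, Dynlrb2 and Rsph1 together and under 2% on Scgb1a1. Secretory cells had at least 5% on Scgb1a1 and under 0.05% on those 4 genes. Basal cells had at least 0.2% on Krt5, Krt14, Krt15 and Aqp3 together and under 2% on Scgb1a1. The gates took 2489 cells of library 1 and 4001 of library 4, or 6490 of the 21667 barcodes in the series.

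The series held 4 mouse groups on the 129S6/SvEvTac strain: the bgh line, whose Spef2 carries a mutation, the Cfap54gt/gt line, in which a gene trap interrupts Cfap54, the nm1054 line, from which Cfap221 is missing, and wild-type mice. Each group was 1 library of cells pooled from 6 tracheas (5 for bgh) of mice aged 5 to 8 months. Cells were freed with pronase, plated to take out fibroblasts and depleted of dead cells. The sources used here do not say which genotype each library number stands for. Libraries therefore go by number, and no ratio below is read as a mutant against wild-type. With 1 library on each side there was no test, and all intervals cover counting error only. Differences between the 2 pools of mice, their handling and their sequencing cannot be told apart.

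The tracheal lining is kept by 3 main cell types. Basal cells hold the layer to its laminin-rich base and can divide to replace the others. Secretory (club) cells release secretoglobins and BPI-fold proteins into the airway fluid and carry enzymes that break down inhaled chemicals, and ciliated cells move that fluid with cilia built on a central pair of microtubules. Spef2, Cfap54 and Cfap221 are all components of the central pair apparatus. Injured epithelium turns on squamous genes such as Sprr1a and Ivl, which encode envelope proteins of stratified epithelia, and metallothioneins are small proteins that bind zinc and copper.

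Library 1 had 3808 filtered cells and library 4 had 5440. The library totals over all barcodes were 44520016 and 47459846 UMIs. The gated cells of library 1 were deeper: median UMIs were 3164 against 2299 in ciliated, 16576 against 11385 in secretory and 5664 against 4568 in basal cells. Only 8 barcode sequences occurred in both libraries, 5 of them among gated cells, and they were kept as separate cells. No doublets were called. The gates left out 294 cells of library 1 and 395 of library 4 with at least 0.05% on the ciliated gate genes and 2% on Scgb1a1. Both the ciliated and the basal gate were met by 2 cells of library 1 and 5 of library 4.

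Markers that the gates did not use followed the gate names for ciliated and basal cells. In both libraries, 8 of 8 other ciliated markers were highest in the ciliated gate and 6 of 6 other basal markers in the basal gate. For secretory markers the figure was 6 of 9. Around the thresholds the cells formed no gap: in library 1 the lowest ciliated cell had 0.301% of its UMIs on the gate genes and the highest cell below the line had 0.299%, and in library 4 the values were 0.3001% and 0.2993%. Of the ciliated cells, 451 of 837 in library 1 and 524 of 1068 in library 4 had less than double the minimum.

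The basal gate took a smaller share of library 1. Basal cells were 16.1% of filtered cells (612 cells, 95% Clopper-Pearson interval 14.9 to 17.3) in library 1 and 25.7% (1397 cells, 24.5 to 26.9) in library 4, with 16.0% and 19.8% in libraries 2 and 3. Ciliated cells were 21.98% (837 cells, 20.7 to 23.3) against 19.6% (1068 cells, 18.6 to 20.7). Secretory cells were 27.4% (1042 cells, 26.0 to 28.8) against 28.3% (1541 cells, 27.1 to 29.5), with overlapping intervals. Under stricter gates the direction turned for secretory cells (11.8% against 9.12%) and for ciliated cells (1.47% against 1.91%), while basal cells stayed lower in library 1 (5.83% against 12.2%). Since gate genes set these shares, they describe the gates and not counts of cells in the tissue.

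For each gate the UMIs of a gene were summed over the cells of a library and given as CPM (the gene's share of that sum, scaled so that all genes together give 1e+06). Genes with at least 100 UMIs over libraries 1 and 4 were compared, and a gene was counted when its CPM differed at least 2-fold. In ciliated cells 28 of 6979 genes were higher in library 1 (0.401%) and 15 lower (0.215%), together 0.616%. In secretory cells 51 of 8951 were higher (0.57%) and 110 lower (1.23%), together 1.8%. In basal cells 58 of 7532 were higher (0.77%) and 96 lower (1.27%), together 2.04%. A ratio above 1 was found for 41.8% of genes in ciliated, 37.9% in secretory and 46.5% in basal cells, and median log2 ratios over all compared genes were -0.05, -0.09 and -0.03. Libraries 2 and 3 differed from library 4 as often or more often in ciliated cells, with 35 genes higher (0.553%) and 40 lower (0.632%) for library 2 and 64 (0.918%) and 56 (0.804%) for library 3. In secretory cells those counts were 175 (1.92%) and 129 (1.42%) for library 2 and 101 (1.1%) and 69 (0.752%) for library 3. In basal cells they were 111 (1.5%) and 110 (1.49%) for library 2 and 48 (0.619%) and 60 (0.774%) for library 3. All of these comparisons share library 4. Library 1 therefore lay no farther from library 4 than the other libraries did, by these counts, in ciliated cells.

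**Figure D1:**
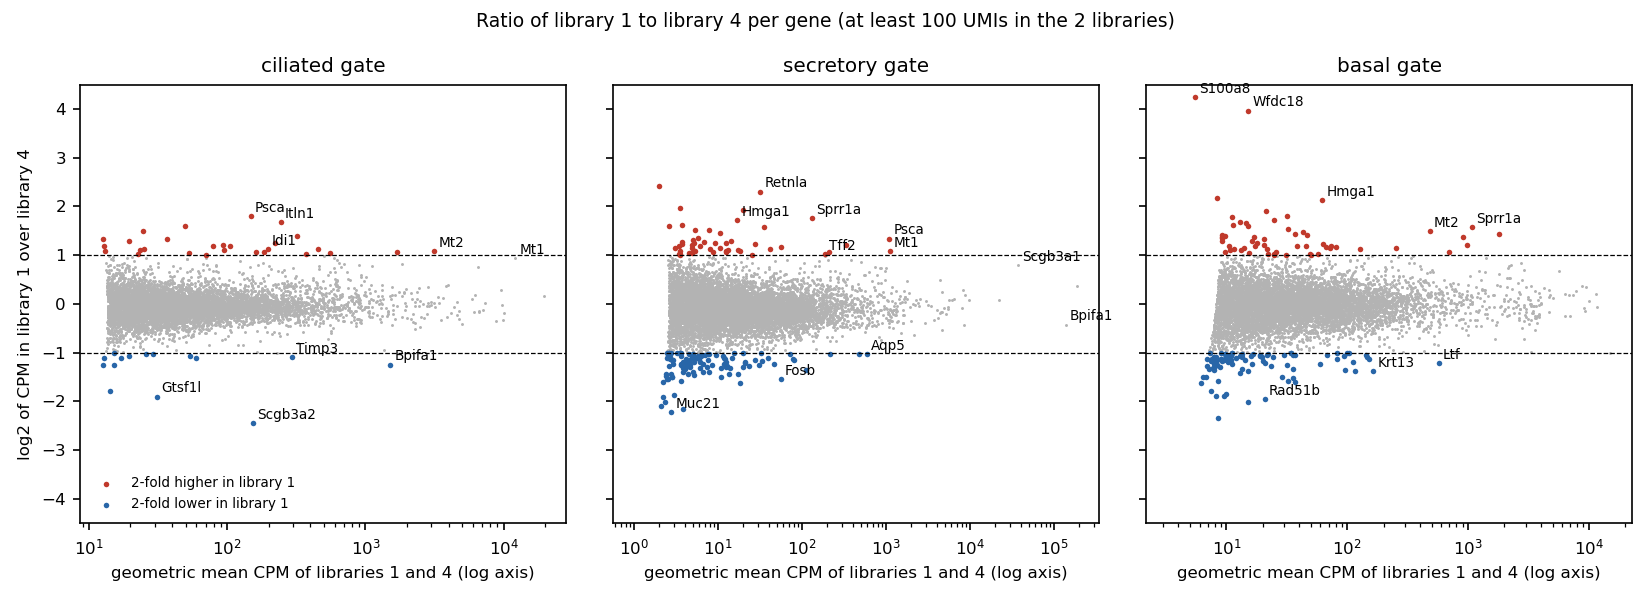
Each point is a gene, with its log2 ratio of library 1 over library 4 against its geometric mean CPM (log axis), for the 3 gates. Red and blue points are at least 2-fold higher or lower in library 1; most genes lie between the dashed lines, and 1 secretory gene (Ccl5) and 2 basal genes (Hbb-bs and Hba-a1), each resting on few cells, fall outside the axis.

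The 3 mutated genes were read first in ciliated cells. Spef2 was at 195, 262, 246 and 242 CPM in libraries 1 to 4, so library 1 was the lowest and libraries 2 to 4 lay close together. The fold of library 4 over library 1 was 1.24 (95% interval 1.12 to 1.37), a log2 ratio of -0.31. It did not hold under all settings: with each cell thinned to 1000 UMIs the log2 ratio was 0.09, and under stricter gates 0.02. Cfap54 was at 125, 5.05, 122 and 120 CPM and Cfap221 at 12.8, 14.3, 0 and 11.03 CPM. For these 2 genes libraries 1 and 4 did not differ beyond counting error, with folds of 1.05 (0.918 to 1.20) and 1.16 (0.742 to 1.81).

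Genes of the ciliary axoneme and of intraflagellar transport had median ratios slightly below 1 in library 1. None of the 14 compared central pair genes differed 2-fold, beside 0.616% of all genes, and their median log2 ratio was -0.19, beside -0.05 over all genes. The median was -0.17 for 22 inner arm and nexin link genes, -0.13 for 14 outer dynein arm genes, -0.18 for 19 microtubule inner proteins and -0.10 for 26 intraflagellar transport genes. For 16 radial spoke genes it was -0.06, near the value over all genes. In each of these lists more members were below 1 than above, for example 19 of 22 inner arm genes and 16 of 19 microtubule inner proteins, beside 58.2% of all genes. Foxj1, the master transcription factor of motile cilia, was at 329, 430, 396 and 424 CPM, and Tubb4b, the main ciliary beta-tubulin, at 1857, 2232, 2059 and 2014 CPM. Both were lowest in library 1, by 1.29-fold (1.20 to 1.39) and 1.08-fold (1.05 to 1.12) against library 4. Only 2 members of the ciliary lists passed 2-fold, Rsph3a at 32.4 against 15.8 CPM and Dynlt1b at 58.7 against 23.2 CPM. Each has a near-identical paralog, so its counts are uncertain.

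Of 5879 genes compared in all 3 gates, 5 were at least 2-fold higher in library 1 in every gate (0.085%) and none was 2-fold lower in every gate. They included the metallothionein Mt2, the RNA polymerase subunit Polr2l, the histone gene H2ac18 and the zinc finger gene Zfp52. At 1.5-fold, 30 genes were higher in every gate (0.51%) and 7 lower (0.119%). The 7 were Nr4a3 and Fosb, both immediate early transcription factors, the water channel Aqp5, the ribonuclease Rnaset2b, the methylglyoxal enzyme Glo1, Rab13 and Etfb.

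Metallothioneins were the most abundant of the genes higher throughout. The promoters of Mt1 and Mt2, neighbours on chromosome 8, are shown because both moved together in every gate. RefSeq windows of 300 bases (GRCm38.p6, from 250 bases before the start, plus strand) were searched on both strands for TGCACNC or TGCGCNC, the core of the metal response element, given here in capitals.
Mt1, chr8:94178839-94179138: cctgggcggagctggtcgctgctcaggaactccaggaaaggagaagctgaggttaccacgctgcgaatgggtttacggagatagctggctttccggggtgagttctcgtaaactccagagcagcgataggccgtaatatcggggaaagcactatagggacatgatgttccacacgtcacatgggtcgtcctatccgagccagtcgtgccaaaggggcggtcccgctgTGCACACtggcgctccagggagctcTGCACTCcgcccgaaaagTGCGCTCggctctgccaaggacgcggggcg
Mt2, chr8:94172368-94172667: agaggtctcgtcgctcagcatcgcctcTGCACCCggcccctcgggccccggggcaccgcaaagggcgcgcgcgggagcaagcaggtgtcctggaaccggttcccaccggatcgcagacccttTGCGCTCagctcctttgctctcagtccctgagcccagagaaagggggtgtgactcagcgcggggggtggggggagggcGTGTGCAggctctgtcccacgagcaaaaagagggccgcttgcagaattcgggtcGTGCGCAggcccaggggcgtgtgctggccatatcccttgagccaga
The Mt1 window held 3 matches and the Mt2 window 4. Of 32851 promoter windows, 25.7% held at least 1 match, 1.97% at least 3 and 0.517% at least 4. A match is a run of letters and no evidence of binding.

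In ciliated cells Mt1 was at 16844, 9695, 8580 and 8745 CPM in libraries 1 to 4, and Mt2 at 4547, 2602, 2170 and 2155 CPM. Library 1 stood above the other 3, by 1.93-fold (1.90 to 1.95) and 2.11-fold (2.05 to 2.17) over library 4. In secretory cells Mt1 was at 1627, 1404, 951 and 765 CPM, and in basal cells at 2949, 2126, 1758 and 1095 CPM. There library 1 was highest, library 4 lowest and libraries 2 and 3 lay between them, and the folds over library 4 were 2.13 (2.09 to 2.17) and 2.69 (2.62 to 2.77). For Mt2 the secretory fold was 2.11 (2.01 to 2.20) and the basal fold 2.80 (2.66 to 2.96). The rise was spread over cells: with each cell thinned to 1000 UMIs, 59.8% of secretory cells in library 1 had an Mt1 UMI (56.7 to 62.9) and 40.6% in library 4 (38.1 to 43.1).

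H2ac18 was at 85.8, 109, 33.5 and 28.3 CPM in ciliated cells and at 22.4, 25.6, 6.55 and 9.22 CPM in secretory cells. Libraries 1 and 2 were high and libraries 3 and 4 low in both gates. H2ac18 has near-identical copies, so its counts are uncertain. Polr2l was at 142, 110, 72.8 and 61.3 CPM in ciliated cells and at 96.8, 58.1, 49.8 and 41.5 CPM in basal cells, with library 1 highest in both.

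Short transcripts were frequent among the genes higher in every gate. The 30 shared genes had a median transcript length of 640 bases, with 12 under 600, against a median of 1906 over all 5879. Of the cytosolic ribosomal protein genes, the 27 with transcripts under 600 bases had median log2 ratios of 0.35, 0.20 and 0.20 in ciliated, secretory and basal cells, and the 53 longer ones had 0.03, -0.12 and -0.04. Over all genes under 600 bases the medians were 0.12, -0.02 and 0.05. For transcripts of 4000 bases and over they were -0.09, -0.04 and 0.07. The Spearman correlation of length with the log2 ratio was -0.10 in ciliated, 0.11 in secretory and 0.16 in basal cells. The part of transcript length in these ratios was not tested.

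**Figure D2:**
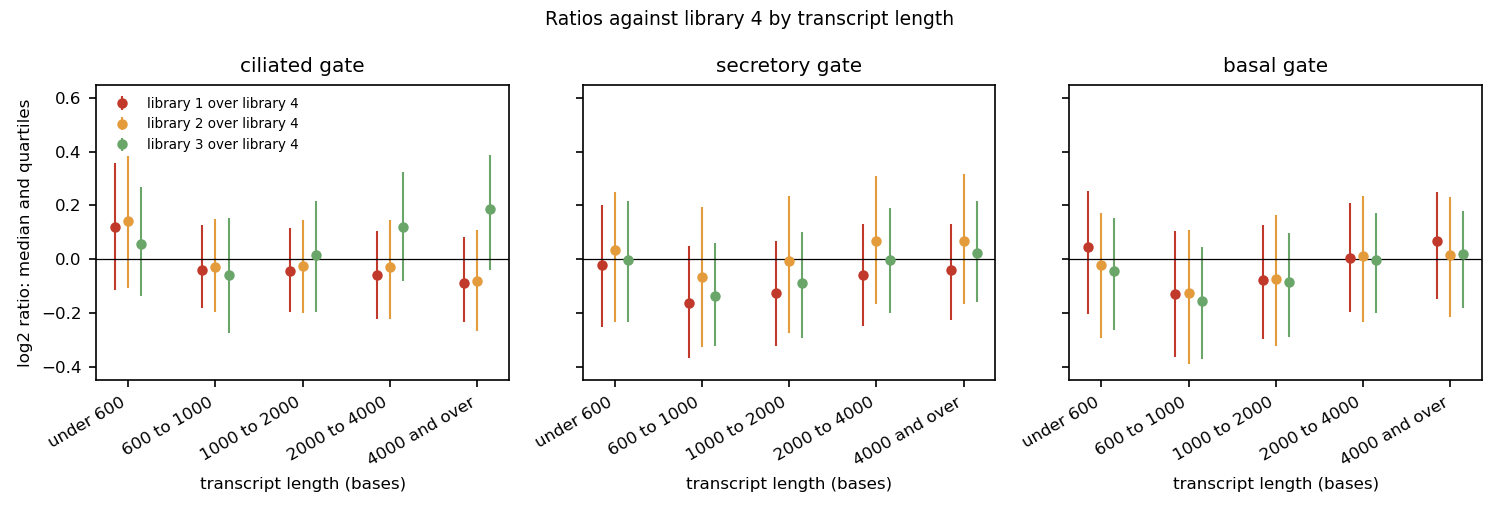
Median log2 ratio against library 4 (points) with quartiles (bars) by transcript length in bases, for libraries 1, 2 and 3 in each gate. Genes under 600 bases sit above the 600 to 1000 group in every gate for library 1, and libraries 2 and 3 have the same step.

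Genes of sterol synthesis were higher in ciliated cells of library 1. Of 16 compared, 15 had a ratio above 1 and 5 passed 2-fold, with a median log2 ratio of 0.60 beside -0.05 over all genes, where 41.8% of genes were above 1. Their summed level was 1960, 982, 1518 and 1223 CPM in libraries 1 to 4, so library 1 was highest and library 2 lowest. The 5 were enzymes or carriers of the pathway: Idi1 and Fdps make and join isoprene units, Fdft1 commits them to sterols, Msmo1 removes methyl groups from the ring and Stard4 carries cholesterol. Idi1 was at 288, 59.0, 122 and 133 CPM, 2.17-fold higher in library 1 than in library 4 (1.95 to 2.42). Msmo1 was at 265, 115, 168 and 127 CPM, 2.08-fold (1.86 to 2.33), and Fdps at 139, 72.4, 81.7 and 64.2 CPM, 2.16-fold (1.85 to 2.54). Only Fdps stayed past 2-fold in all 7 alternatives. Idi1 had a log2 ratio of 0.55 under stricter gates, which left few ciliated cells, Msmo1 had 0.93 after thinning, and the lowest value for Stard4 was 0.74. Fdft1, at 76.8 against 37.0 CPM, went the other way under stricter gates. In secretory cells 13 of 14 members were above 1, with a median of 0.29 and none past 2-fold, and in basal cells 7 of 12, with a median of 0.11.

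The start regions of Idi1 and Msmo1 are shown as those of the 2 sterol genes with the highest level in library 1 among the 5. Capitals mark CCAAT, the box bound by NF-Y, on either strand (RefSeq, GRCm38.p6). Idi1 is on the plus strand and Msmo1 on the minus strand.
Idi1, chr13:8885356-8885655: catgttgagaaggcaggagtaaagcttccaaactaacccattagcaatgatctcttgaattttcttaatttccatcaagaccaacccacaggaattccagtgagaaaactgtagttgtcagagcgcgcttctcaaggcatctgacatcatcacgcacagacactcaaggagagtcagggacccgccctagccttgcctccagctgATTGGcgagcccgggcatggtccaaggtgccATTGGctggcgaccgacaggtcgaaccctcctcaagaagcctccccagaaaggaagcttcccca
Msmo1, chr8:64733529-64733828: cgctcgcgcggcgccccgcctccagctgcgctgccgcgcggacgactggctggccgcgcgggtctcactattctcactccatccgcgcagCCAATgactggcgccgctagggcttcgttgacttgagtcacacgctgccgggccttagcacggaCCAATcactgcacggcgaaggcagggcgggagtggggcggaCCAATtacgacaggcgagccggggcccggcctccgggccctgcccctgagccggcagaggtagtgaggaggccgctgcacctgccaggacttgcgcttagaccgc
Idi1 held 2 matches, both on the opposite strand, and Msmo1 held 3. Of the 19 sterol genes 11 had a window, with 13 windows in all. CCAAT was held by 11 of the 13 windows, against 37.4% of all windows. Fdps, Fdft1 and Stard4 had no window. Here too a match is no evidence of binding, and a part of NF-Y in the ratios was not tested.

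Other genes higher in ciliated cells of library 1 encode secreted and surface proteins and glutathione transferases. Itln1, an intelectin lectin, was at 439, 76.2, 61.9 and 137 CPM, above each of the other libraries and 3.21-fold over library 4 (2.90 to 3.56). After thinning, 22.1% of ciliated cells in library 1 had an Itln1 UMI (19.2 to 25.2) and 8.97% in library 4 (7.18 to 11.04). Psca, a surface protein of the Ly6 family, was at 276, 174, 173 and 78.9 CPM. Its 3.50-fold difference (3.06 to 4.01) rested on few cells, since the top 5% of cells held 88.0% of its UMIs in library 1 and 92.5% in library 4. Gstp1 was at 341, 195, 87.7 and 143 CPM and its near-identical neighbour Gstp2 at 158, 96.9, 31.8 and 69.0 CPM.

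Of the 15 genes lower in ciliated cells of library 1, 3 encode secreted products of secretory cells: Scgb3a2, Bpifa1 and Bpifb1. Scgb3a2, a secretoglobin, was at 65.9, 112, 426 and 358 CPM, 5.43-fold lower in library 1 than in library 4 (4.74 to 6.25), and Bpifa1, an abundant airway lining protein, at 981, 2187, 4936 and 2324 CPM, 2.37-fold lower (2.28 to 2.46). Scgb1a1, which the gate limits, was at 977 and 1891 CPM in these cells. In secretory cells themselves Scgb3a2 was at 22571 and 21435 CPM, Bpifa1 at 119600 and 160203 CPM and Scgb1a1 at 212299 and 165630 CPM, so only Bpifa1 was lower in library 1 there. Under stricter gates the log2 ratio in ciliated cells was -0.10 for Bpifa1 and -0.67 for Scgb3a2. Of 9 secretory markers 3 were 2-fold lower in ciliated cells of library 1, Scgb3a2, Bpifa1 and Bpifb1. The sum of the 9 was 33913 and 33757 CPM, but most of it was Reg3g (20657 and 18467 CPM) and Cbr2 (7343 and 7203 CPM), which were higher in ciliated than in secretory cells. The part of free RNA in these values was not tested.

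Several other genes were also lower in ciliated cells of library 1. Gtsf1l was at 16.2, 69.9, 80.8 and 60.5 CPM, 3.73-fold lower than in library 4 (2.80 to 5.05) and below every other library. Under stricter gates, which left few ciliated cells, its log2 ratio was -0.05. Timp3, a metalloproteinase inhibitor of the matrix, was at 203, 189, 287 and 429 CPM, 2.12-fold lower (1.94 to 2.31), with libraries 1 and 2 together. Tbata was at 40.6, 85.1, 88.3 and 87.6 CPM, with library 1 alone low. Rnaset2b, which has a close paralog, was at 7.70, 18.1, 35.5 and 26.6 CPM. Secretory cells held it at a similar level, 6.46, 19.3, 38.1 and 18.2 CPM, also lowest in library 1. Of the markers of other cell types in the ciliated gate, macrophage and monocyte genes summed to 989 and 1123 CPM, with C1qa, C1qb, C1qc, Adgre1, Ms4a7, Cx3cr1 and Mrc1 at 0 in both libraries.

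**Figure D3:**
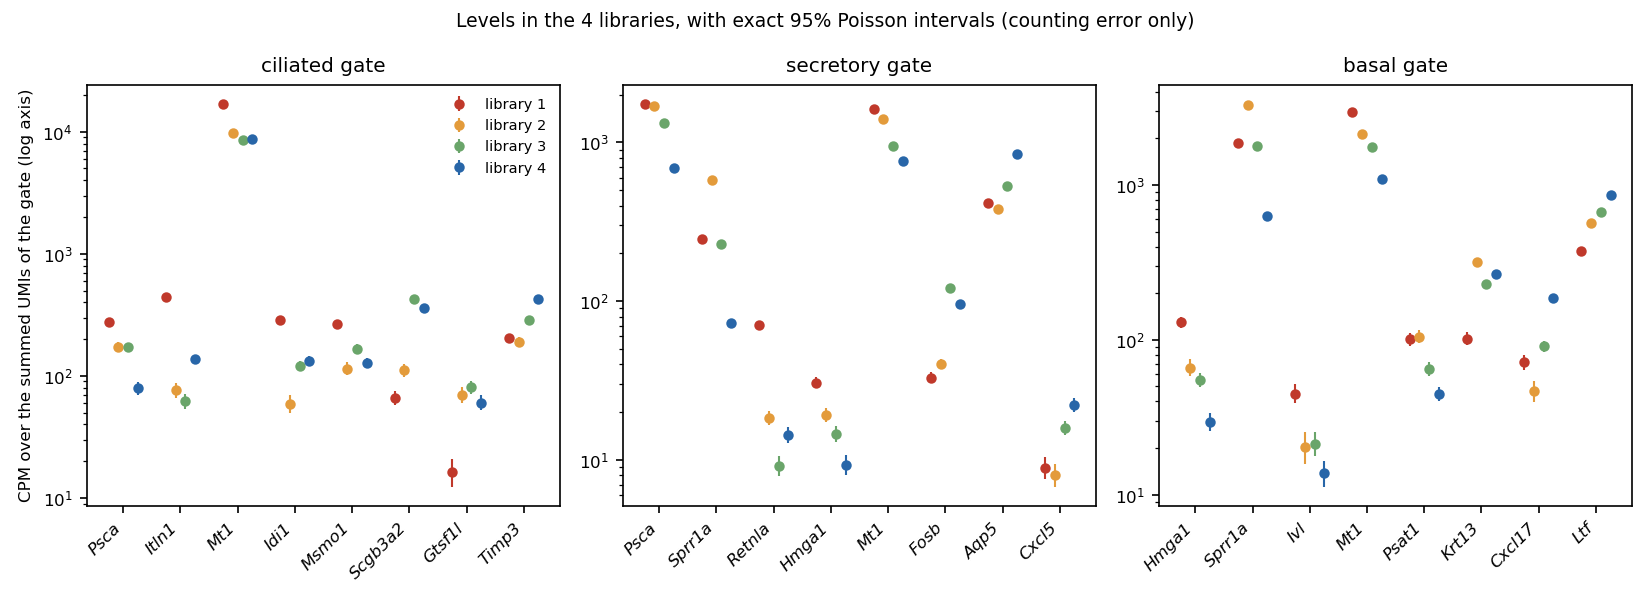
CPM (log axis) of 8 genes per gate in libraries 1 to 4, with exact 95% Poisson intervals. Library 1 stands apart from the other 3 for Itln1, Idi1 and Gtsf1l in ciliated cells and for Retnla in secretory cells, while Aqp5 in secretory cells and Cxcl17 in basal cells are highest in library 4.

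In secretory cells the genes higher in library 1 included Psca, the squamous gene Sprr1a, the keratin Krt75 and the secreted protein Retnla. Psca was at 1734, 1688, 1326 and 686 CPM, 2.53-fold over library 4 (2.48 to 2.58). Library 4 was the low library here, and the other 3 lay within a narrow range. After thinning, 50.8% of secretory cells in library 1 had a Psca UMI (47.7 to 54.0) and 20.7% in library 4 (18.7 to 22.8), against 7.06% and 3.48% of ciliated cells. Sprr1a was at 245, 583, 228 and 72.5 CPM, 3.38-fold higher in library 1 than in library 4 (3.18 to 3.59), again with library 4 lowest and library 2 highest.

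Retnla, a secreted protein induced by interleukin-13, was at 70.8, 18.4, 9.21 and 14.3 CPM, and library 1 was the high library, 4.94-fold over library 4 (4.34 to 5.64). It came from few cells: 108 cells of library 1 and 74 of library 4 had a UMI, and the top 5% of cells held 93.9% of its UMIs in library 1. Tff2, a trefoil peptide of mucous cells, was at 270, 107, 71.6 and 133 CPM, 2.04-fold (1.94 to 2.14), and fell under 2-fold in 4 of 7 alternatives. The keratin Krt75 was at 38.6, 23.9, 13.4 and 10.1 CPM, 3.82-fold (3.26 to 4.497). Hmga1, an architectural chromatin protein, was at 30.8, 19.2, 14.6 and 9.32 CPM, 3.30-fold (2.79 to 3.92), and Inhba, the activin A subunit, at 60.4, 55.4, 14.4 and 20.2 CPM, 2.98-fold (2.66 to 3.35). Ccl5, a T cell chemokine, had 203 UMIs in 9 cells of library 1, with 176 of them in 1 cell. Library 4 had 1 UMI in 1 cell.

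The most abundant secretory products moved less than 2-fold. Scgb3a1 was at 48661, 38110, 36310 and 27989 CPM, 1.74-fold higher in library 1 (1.73 to 1.74), and Bpifa1 at 119600, 142492, 151795 and 160203 CPM, 1.34-fold lower (1.34 to 1.34). Library 1 was highest and library 4 lowest for Scgb3a1, and the reverse held for Bpifa1. Scgb1a1 defined the gate, and its 212299 CPM in library 1 against 165630 in library 4 takes a larger share of the total there. With the 50 most abundant genes left out of the total, 60 genes were higher and 80 lower in library 1, in place of 51 and 110.

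Enzymes of xenobiotic metabolism were mostly lower in secretory cells of library 1. Of 30 compared, 26 had a ratio below 1 and 3 passed 2-fold, with a median log2 ratio of -0.39 beside -0.09 over all genes, where 62.1% were below 1. Cyp2f2, the cytochrome P450 that marks club cells, was at 3842, 4006, 4717 and 5541 CPM, 1.44-fold lower (1.43 to 1.46). Basal cells had the same direction for 21 of 24 members, with a median of -0.40 beside -0.03 over all genes, where 53.5% were below 1. In ciliated cells 16 of 21 members were below 1, beside 58.2% of all genes. Their median of -0.09 was near the -0.05 over all genes.

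Among the other genes lower in secretory cells of library 1 were an immediate early gene, an epithelial chemokine and a water channel. Fosb was at 32.9, 40.4, 122 and 95.8 CPM, 2.91-fold lower than in library 4 (2.66 to 3.19), with libraries 1 and 2 together. Cxcl5, a chemokine that attracts neutrophils, was at 8.94, 8.05, 15.9 and 22.2 CPM, 2.49-fold lower (2.07 to 2.99). Aqp5 was at 415, 382, 529 and 846 CPM, 2.04-fold lower (1.98 to 2.09). Library 4 was the high library for Aqp5, and its ratio fell short of 2-fold in 6 of 7 alternatives. Of 23 compared members of the squamous and wound list 2 were 2-fold higher and 4 lower, beside 0.57% and 1.23% of all genes. The 4 lower were Ly6g6c, Krt13, Ecm1 and Krt4.

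Among the genes higher in basal cells of library 1 were 4 of 27 compared members of the squamous and wound list. These were Sprr1a, Ivl, Tnc and Itga2, and 2 members were lower. Over all genes 0.77% were 2-fold higher and 1.27% lower. The list as a whole was balanced, with 14 members above 1, 13 below and a median log2 ratio of 0.02. Sprr1a was at 1864, 3294, 1783 and 627 CPM, 2.97-fold over library 4 (2.87 to 3.08), and library 4 was again lowest. After thinning, 49.0% of basal cells in library 1 (44.9 to 53.1) and 25.5% in library 4 (23.2 to 27.9) had a Sprr1a UMI, against 12.5% and 5.57% of secretory cells. Ivl, the envelope protein involucrin, was at 44.996, 20.2, 21.3 and 13.7 CPM, and library 1 stood above the rest, 3.27-fold over library 4 (2.57 to 4.19). The matrix protein tenascin C (Tnc) was at 20.5, 13.4, 9.04 and 5.98 CPM, 3.43-fold (2.38 to 5.00), and the collagen receptor subunit Itga2 at 76.6, 71.2, 42.6 and 28.6 CPM, 2.67-fold (2.25 to 3.18).

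Genes of the HMGA family of chromatin proteins were also higher in basal cells of library 1. Hmga1 was at 130, 66.2, 55.1 and 29.5 CPM, 4.40-fold higher in library 1 than in library 4 (3.77 to 5.15), and its relative Hmga2 at 25.7, 23.4, 18.8 and 8.14 CPM, 3.15-fold (2.30 to 4.36). For Hmga1 library 1 was high and library 4 low, and for Hmga2 library 4 was low. Hmga1 has near-identical copies, so its counts are uncertain. After thinning, 10.4% of basal cells in library 1 had an Hmga1 UMI (8.03 to 13.1) and 3.54% in library 4 (2.63 to 4.65). Inhba was at 59.6, 66.0, 22.7 and 17.2 CPM, with libraries 1 and 2 high.

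Enzymes of serine synthesis and other targets of the stress transcription factor Atf4, a list drawn up after the ratios were seen, were higher in basal cells of library 1. Of 14 compared, 13 were above 1 and 5 passed 2-fold, with a median log2 ratio of 0.91 beside -0.03 over all genes, of which 46.5% were above 1 and 0.77% were 2-fold higher. Because of how the list was drawn up, these counts support nothing about it. Phgdh, which makes the first step from glycolysis to serine, was at 60.5, 49.1, 24.7 and 22.3 CPM, 2.72-fold over library 4 (2.24 to 3.31), and Psat1, the next enzyme, at 101, 105, 64.8 and 44.5 CPM, 2.26-fold (1.96 to 2.61). Libraries 1 and 2 were high for both. The other 3 were Shmt2, Cth and Slc7a5. In secretory cells 11 of 14 members were above 1 with a median of 0.28, and in ciliated cells 2 of 4.

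Among the genes lower in basal cells of library 1 were a keratin, a chemokine and a defence protein. Krt13, a keratin of hillock and stratified epithelium, was at 102, 320, 229 and 266 CPM, 2.61-fold lower than in library 4 (2.35 to 2.90), and Calml3, a calmodulin-like protein of epithelia, at 21.2, 78.0, 62.4 and 64.5 CPM, 3.04-fold lower (2.43 to 3.85). Library 1 alone was low for both. Cxcl17, a mucosal chemokine, was at 71.6, 46.6, 90.8 and 185 CPM, 2.58-fold lower (2.28 to 2.93), and here library 4 alone was high. The iron-binding defence protein lactoferrin (Ltf) was at 374, 572, 670 and 868 CPM, 2.32-fold lower (2.20 to 2.45), but its log2 ratio was only -0.46 without the 5% of cells with most UMIs.

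Several secretory products were also lower in the basal gate of library 1. The sum of the 9 secretory markers was 21567, 16158, 28618 and 36071 CPM across the 4 libraries. Of this, Bpifa1 was at 10568 and 21087 CPM and Scgb3a2 at 2359 and 4700 CPM in libraries 1 and 4. Only 5 of 23 mucin and goblet genes were compared, and all 5 were below 1, beside 53.5% of all genes. They included Agr2, an endoplasmic reticulum protein of mucous cells, at 65.5 and 137 CPM. Scgb3a1 went the other way, at 1456, 481, 1622 and 565 CPM, but under stricter gates its log2 ratio was -0.38. The gland markers summed to 378 and 887 CPM, with Dcpp1, Dcpp3, Prr27, Pip and Smgc at 0. Nearly all of that sum was Ltf, whose ratio and its limit are given above. The part of secretory RNA in the basal ratios was not tested.

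Hemidesmosome and laminin genes, which tie basal cells to their base, were above 1 for 12 of 13 members in basal cells, beside 46.5% of all genes, with a median log2 ratio of 0.21 beside -0.03 and none past 2-fold. All 13 mitochondrially encoded genes were above 1 in basal cells, with sums of 58690 and 47331 CPM, and 10 of 13 were below 1 in ciliated cells, with 38968 and 45516 CPM. Red cell haemoglobin in the basal gate came from library 4, where Hbb-bs had 1113 UMIs in 2 cells. S100a8 and Wfdc18, the highest basal folds, rested on 8 and 7 cells of library 1.

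**Figure D4:**
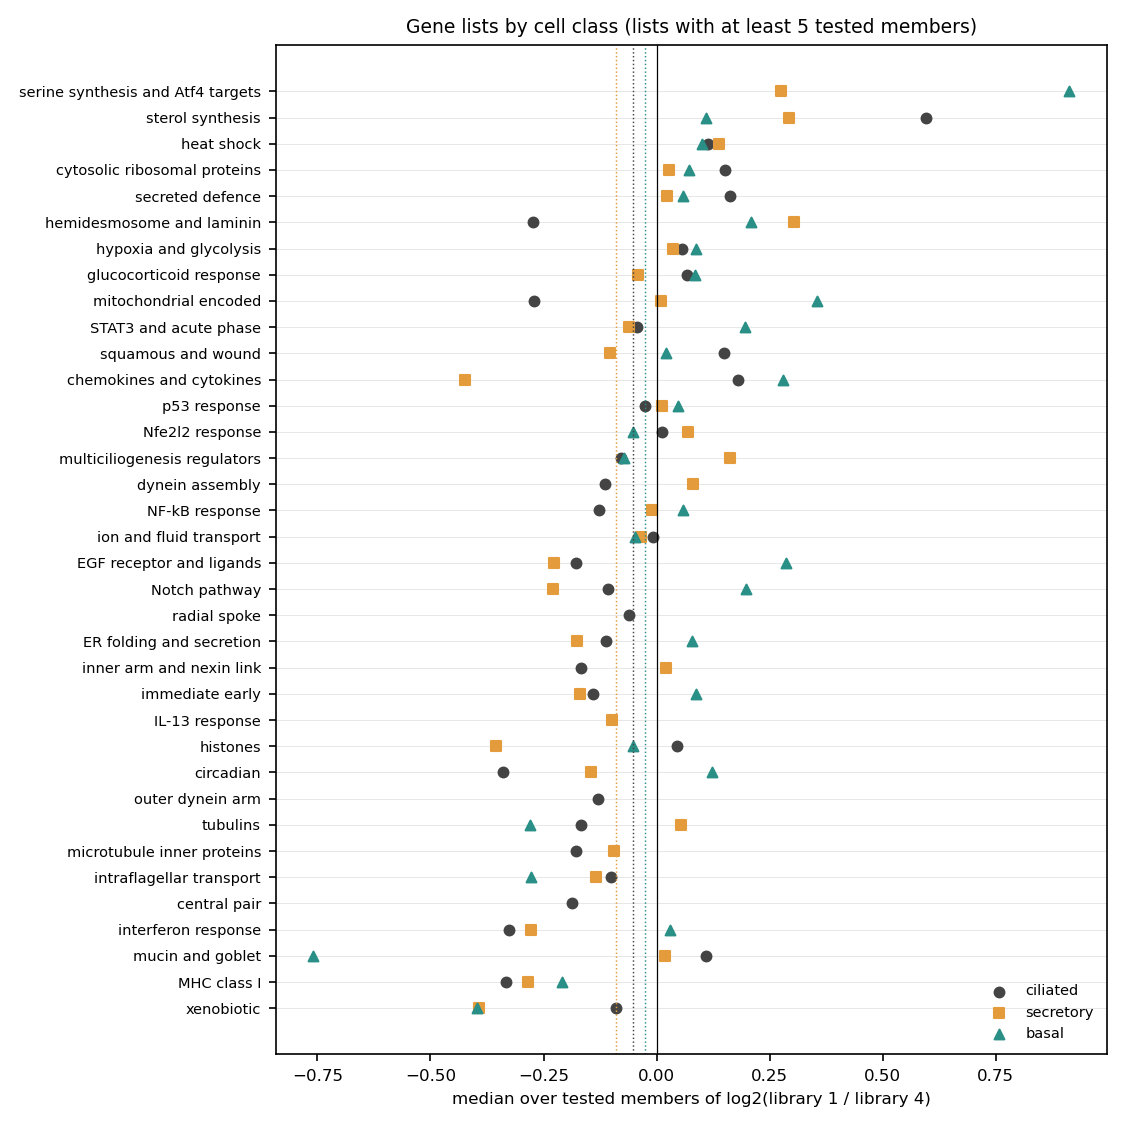
Median log2 ratio of library 1 over library 4 for gene lists with at least 5 compared members, by gate, with dotted lines at the median over all compared genes. Sterol synthesis in ciliated cells (0.60) and the serine and Atf4 list in basal cells (0.91), which was drawn up after the ratios were seen, lie farthest to the right, and mucin and goblet genes in basal cells (-0.76) farthest to the left.

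The position of libraries 2 and 3 differed between the gates. On the log scale library 2 lay nearer to library 1 than to library 4 for 39 of 51 higher and 87 of 110 lower genes in secretory cells, and for 43 of 58 and 62 of 96 in basal cells. In ciliated cells it did so for 12 of 28 and 6 of 15. Library 3 lay nearer to library 1 for 16 of 51 and 28 of 110 in secretory cells, 19 of 58 and 44 of 96 in basal cells, and 7 of 28 and 3 of 15 in ciliated cells. These genes were chosen by their ratio to library 4, so the counts are a description.

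Few genes set 1 library apart from each of the other 3 by 2-fold. In ciliated cells library 1 was above all others for 4 genes (0.0573%) and below for 5 (0.0716%), and library 4 for 1 (0.0143%) and 2 (0.0287%). In secretory cells the counts were 5 (0.0559%) and 10 (0.112%) for library 1 and 3 (0.0335%) and 9 (0.101%) for library 4. In basal cells they were 3 (0.0398%) and 11 (0.146%) for library 1 and 10 (0.133%) and 8 (0.106%) for library 4. The genes of library 1 in ciliated cells were Itln1, Cryab, Idi1 and Dhrs9 on the high side and Gtsf1l, Rnaset2b, Bpifa1, Tbata and Prss22 on the low side. Cryab, a small heat shock protein, was found in 19 cells of library 1 and 22 of library 4.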

How the data were processed

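RNA of tracheal cells was read by 3' single-cell sequencing in 4 libraries, 1 per group. The deposited matrix holds raw UMI counts per gene and barcode, made with Cell Ranger 6.0.1 per the file headers, on GRCm39 per the submitters' processing notes. It pools the libraries and numbers them in the barcodes, with 22583 features, 21667 barcodes and 185129788 UMIs. Filtering removed 1308 barcodes, those below 300 genes or above 20% mitochondrial UMIs, and kept 20359. Gates used shares of UMIs, so gate genes are no findings. UMIs were summed per library and gate and scaled to CPM. A count under 3 was set to 3 in a ratio. Intervals are exact, at 95%: Poisson for levels, conditional binomial for ratios, and, for shares, Clopper-Pearson. Only counting error enters them, and depth is the summed UMIs of each gate, 3537372 to 19519658 in libraries 1 and 4. For shares of cells with a UMI, cells were thinned to 1000 UMIs and shallower ones left out.

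Named genes were, per gate, the 15 largest ratios in each direction, up to 10 that set library 1 or 4 apart from the other 3, the 3 mutated genes, members of the lists past 2-fold (the 4 largest where more passed, or the member with most UMIs where none did) and genes past 2-fold in opposite directions in 2 gates. Some genes were added after their values were seen: Mt1, Fdft1 and Hmga1 in ciliated, Bpifa1, Scgb3a2 and Slc7a5 in basal, and Polr2l and Zfp52 in secretory cells. Genes named beside a group for comparison, such as Foxj1, were also chosen then. The members and all 39 lists were chosen with earlier results of these data known. Transcript length was the median over a gene's protein-coding transcripts in the GENCODE mouse annotation, and promoters came from a RefSeq table. On counts simulated for each gate with counting error only, 2.5-fold changes were called in 96% of ciliated, 94% of secretory and 98.0% of basal genes. The simulation held no variation between cells or libraries, so it does not measure how reliable the calls are. Python 3.11.15, numpy 2.4.6, scipy 1.17.1 and pandas 2.3.3 were used. Some named genes are not reported here.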

Additional observations from a re-analysis of the deposited data

How the results depend on the processing

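Counts of genes past 2-fold moved with the settings. In ciliated cells the 28 higher genes became 17 after thinning, 6 under stricter gates, 80 with a minimum of 30 UMIs, 148 at 1.5-fold and 3 at 3-fold. The 15 lower became 33 with a mean over cells, 7 after thinning, 1 under stricter gates, 80 and 5 with minimums of 30 and 400 UMIs, 146 at 1.5-fold and 3 at 3-fold. In secretory cells the 51 higher became 123 with a mean over cells, 14 after thinning, 141 and 23 with those minimums, 261 at 1.5-fold and 9 at 3-fold. The 110 lower became 11 after thinning, 51 under stricter gates, 241 and 34 with those minimums, 595 at 1.5-fold and 8 at 3-fold. In basal cells the 58 higher became 19 after thinning, 37 under stricter gates, 153 and 22 with those minimums, 324 at 1.5-fold and 12 at 3-fold. The 96 lower became 28 after thinning, 59 under stricter gates, 231 and 28 with those minimums, 485 at 1.5-fold and 13 at 3-fold. Thinning, the higher minimum and stricter gates leave fewer UMIs, so fewer genes are compared. The lower minimum lets in more genes. The number of genes compared in those settings is not given here, so their counts cannot be read as shares. Without transcripts under 600 bases, a setting chosen after seeing the data, the counts were 21 and 14, 41 and 106, and 51 and 91.

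Shares of cells fell under stricter gates to 1.47% and 1.91% (ciliated, libraries 1 and 4), 11.8% and 9.12% (secretory) and 5.83% and 12.2% (basal). With at least 1000 genes and at most 10% mitochondrial UMIs they were 19.6% and 13.5%, 30.5% and 30.8%, and, for basal cells, 17.2% and 28.3%.

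Of named genes past 2-fold, 9 of 37 in ciliated, 20 of 58 in secretory and 26 of 67 in basal cells stayed past it in all 7 alternatives, among them Psca and Itln1 (ciliated), Psca, Retnla and Fosb (secretory) and Hmga1, Ivl, Phgdh, Krt13 and Cxcl17 (basal). Log2 ratios changed sign after thinning for Kcnh3 (0.22) in ciliated cells, for Ccl20 (0.29), Il18 (0.19), Scel (1.02), Trex2 (0.0243) and Uchl1 (-0.13) in secretory cells, and for Acta1 (-0.53) and Lif (-0.0870) in basal cells. Under stricter gates they did so for Prss22 (0.33) and Fdft1 (-1.13) in ciliated, Ifit1 (-0.98), Krt13 (0.44) and Scel (0.0028) in secretory, and Acta1 (-0.13), Cxcl2 (-0.0770) and Scgb3a1 (-0.38) in basal cells. Without the 5% of cells with most UMIs, Acta1 (-0.64) and Lyz1 (0.29) did so in basal cells, and Hba-a1 (0.20) with at least 1000 genes. Apart from the settings that leave fewer UMIs, the cause was not tested. No paired analysis was possible because each group has 1 library.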

Other observations

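Genes of antigen presentation were mostly lower in library 1 in each gate. Over all genes 58.2% were below 1 in ciliated, 62.1% in secretory and 53.5% in basal cells. Of 13 compared MHC class I genes, which present peptides to T cells, 12 were below 1 in ciliated cells, with a median log2 ratio of -0.33. In secretory cells 12 of 16 were below 1, with a median of -0.29. In basal cells 9 of 13 were below 1, with a median of -0.21, and 1 was 2-fold lower. Interferon response genes were below 1 for 11 of 16 in ciliated cells (median -0.33) and 13 of 21 in secretory cells (median -0.28), and for 7 of 17 in basal cells (median 0.03). The 2 members past 2-fold in secretory cells, Ifit1 and Ifit3, were higher in library 1. Circadian clock genes had a median of -0.34 in ciliated, -0.15 in secretory and 0.12 in basal cells. Receptors and ligands of the EGF family were above 1 for 9 of 11 in basal cells (median 0.29) and 3 of 11 in secretory cells (median -0.23). Heat shock genes were above 1 for 14 of 20 in ciliated, 14 of 20 in secretory and 14 of 19 in basal cells. Over all genes the share above 1 was 41.8% in ciliated, 37.9% in secretory and 46.5% in basal cells. The medians over all compared genes were -0.05, -0.09 and -0.03. None of these lists had more than 2 members past 2-fold in a gate.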
